A study of Mus musculus with 6 samples.

Results

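The metallothioneins Mt1, Mt2 and Mt3 were measured by 4 probe sets among the 45037 non-control probe sets of the array, and they are 3 of the 18193 genes with a probe set that carries a single symbol. They were picked by measured values: the 2 probe sets of Mt1 disagreed on the difference between Scap_ko and Scap_control lungs. Every level and difference of a metallothionein below therefore describes these arrays and carries no test. Mt1 had 2 probe sets, 1422557_s_at and 1451612_at, Mt2 had 1 (1428942_at) and Mt3 had 1 (1420575_at), and all 4 are described.

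The RNA came from whole mouse lung at E18.5, shortly before birth, and was hybridised to Affymetrix MOE430 V2 arrays. The 3 Scap_ko samples came from lungs in which the Scap gene had been deleted in vivo from respiratory epithelial cells (Scap d/d), and the 3 Scap_control samples are labelled control. All 6 were on a mixed background from FVB/N and B6 mice. Scap encodes the escort protein that SREBP transcription factors need to become active, and the comparison asks what its loss from the epithelium does to transcripts of the whole lung. The promoter that drove the deletion, the alleles carried by the controls, and whether a sample was 1 animal or a pool are details not given in the sources used here. Nothing in the labels says that replicates were separate animals, so each p-value reflects the spread among these arrays alone, and that spread may be technical. In whole lung, fewer cells of a type and less RNA per cell cannot be told apart.

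Metallothioneins are small, cysteine-rich proteins of the cytosol that bind zinc and copper and also take up cadmium. Mt1 and Mt2 are made in most tissues, and their transcription is switched on by the zinc sensor MTF1, which binds metal response elements in their promoters, and by glucocorticoids, oxidative stress and inflammatory signals. Mt3 is known mainly from brain, where it binds zinc in neurons. Mt4, which lies beside them in the genome, is known from stratified squamous epithelium.

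The promoters are shown because the metal response element is the sequence feature through which Mt1 and Mt2 are known to be induced together. Each is the window from 250 bases before to 50 after the start of the gene in RefSeq, build GRCm38.p6, written 5′ to 3′, and all 3 genes had such a window. Capitals mark matches, on either strand, to the core letters TGCGCNC or TGCACNC, which differ at 1 base; no marked matches overlap one another.
Mt1 promoter, chr8:94178839-94179138, plus strand: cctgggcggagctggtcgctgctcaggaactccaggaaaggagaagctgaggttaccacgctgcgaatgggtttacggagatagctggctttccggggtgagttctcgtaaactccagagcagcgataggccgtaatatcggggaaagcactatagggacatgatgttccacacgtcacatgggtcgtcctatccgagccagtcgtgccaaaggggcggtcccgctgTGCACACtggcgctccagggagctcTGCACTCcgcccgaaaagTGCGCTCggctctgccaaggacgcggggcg
Mt2 promoter, chr8:94172368-94172667, plus strand: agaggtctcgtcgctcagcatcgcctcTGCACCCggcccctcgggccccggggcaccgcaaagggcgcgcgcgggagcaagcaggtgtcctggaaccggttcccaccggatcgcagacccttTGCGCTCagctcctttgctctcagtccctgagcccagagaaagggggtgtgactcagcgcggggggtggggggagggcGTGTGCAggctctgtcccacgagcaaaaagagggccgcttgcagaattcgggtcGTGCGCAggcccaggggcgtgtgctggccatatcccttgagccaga
Mt3 promoter, chr8:94152357-94152656, plus strand: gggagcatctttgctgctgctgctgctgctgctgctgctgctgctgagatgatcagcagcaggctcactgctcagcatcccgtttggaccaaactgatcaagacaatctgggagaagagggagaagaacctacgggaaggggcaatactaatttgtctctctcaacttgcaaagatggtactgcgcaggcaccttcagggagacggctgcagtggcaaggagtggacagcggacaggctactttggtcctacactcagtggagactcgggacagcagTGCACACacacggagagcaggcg

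The Mt1 window held 3 matches to the metal response core, all on the strand shown and all from base 228 of 300 onwards. The Mt2 window held 4 matches, 2 on each strand, spread along its length. The Mt3 window held 1, near its end. Of 32851 mouse promoter windows of the same length, 25.7% held at least 1 match, 1.97% held at least as many as Mt1 and 0.517% held at least as many as Mt2. The core of the antioxidant response element, searched as TGACNNNGC on both strands, matched once in the Mt2 window and not in the windows of Mt1 and Mt3. It was present in 12.4% of all windows. A match is a run of letters and not a measured binding site.

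The probe set of Mt1 with the highest signal, 1422557_s_at, read nearly alike in both groups. It gave 14639.7, 14002.3 and 17238.3 signal units in Scap_ko lungs 1 to 3, against 12760.5, 11607.8 and 18967.4 in Scap_control lungs 1 to 3. The groups overlapped, and replicate 3 was the highest array in each. The means were 15293 ± 1714 in Scap_ko lungs and 14445 ± 3958 in Scap_control lungs (SD, n = 3 each). The log2 difference, Scap_ko minus Scap_control, was 0.11 with a standard error (SE) of 0.24. The suffix of this probe set marks probes that can match transcripts of more than 1 gene, so its signal may not come from Mt1 alone.

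The other Mt1 probe set, 1451612_at, read several times higher in Scap_ko lungs. It gave 1971.2, 3038.7 and 2921.4 signal units in Scap_ko lungs 1 to 3, against 626.5, 402.4 and 375.9 in Scap_control lungs 1 to 3. Every Scap_ko array lay above every Scap_control array, and the lowest Scap_ko array was replicate 1 while the highest Scap_control array was also replicate 1. The means were 2644 ± 585 in Scap_ko lungs and 468.3 ± 138 in Scap_control lungs (SD, n = 3 each), a 5.69-fold difference (log2 difference 2.51, SE 0.31). Within the pairs of samples that share a replicate number the log2 differences were 1.65, 2.92 and 2.96.

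The Mt2 probe set, 1428942_at, read lower in Scap_ko lungs. Its signal was 4278.3, 6445.6 and 5818.4 in Scap_ko lungs 1 to 3, against 6986.7, 7182.7 and 12634.4 in Scap_control lungs 1 to 3. The groups did not overlap, although Scap_ko lung 2 came close to the 2 lower controls, and Scap_control lung 3 stood far above the other arrays. The means were 5514 ± 1115 in Scap_ko lungs and 8935 ± 3206 in Scap_control lungs (SD, n = 3 each). Scap_ko lungs stood at 63.3% of Scap_control lungs on the log2 scale (log2 difference -0.66, SE 0.33). The log2 differences within the numbered pairs were -0.71, -0.16 and -1.12, and the overall difference was -0.38 without Scap_control lung 3.

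The Mt3 probe set, 1420575_at, was among the dim ones of the array. It read 11.2, 58.6 and 44.4 signal units in Scap_ko lungs 1 to 3, against 95, 92.1 and 74.2 in Scap_control lungs 1 to 3. The groups did not overlap, and Scap_ko lung 1 was the lowest by a wide margin. The means were 38.1 ± 24.3 in Scap_ko lungs and 87.1 ± 11.3 in Scap_control lungs (SD, n = 3 each), a log2 difference of -1.49 (SE 0.75) that became -0.76 without Scap_ko lung 1 and -0.68 when 50 was added to each signal before the log. No detection calls were used here, so it is not known whether so dim a signal lies above background.

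**Figure D1:**
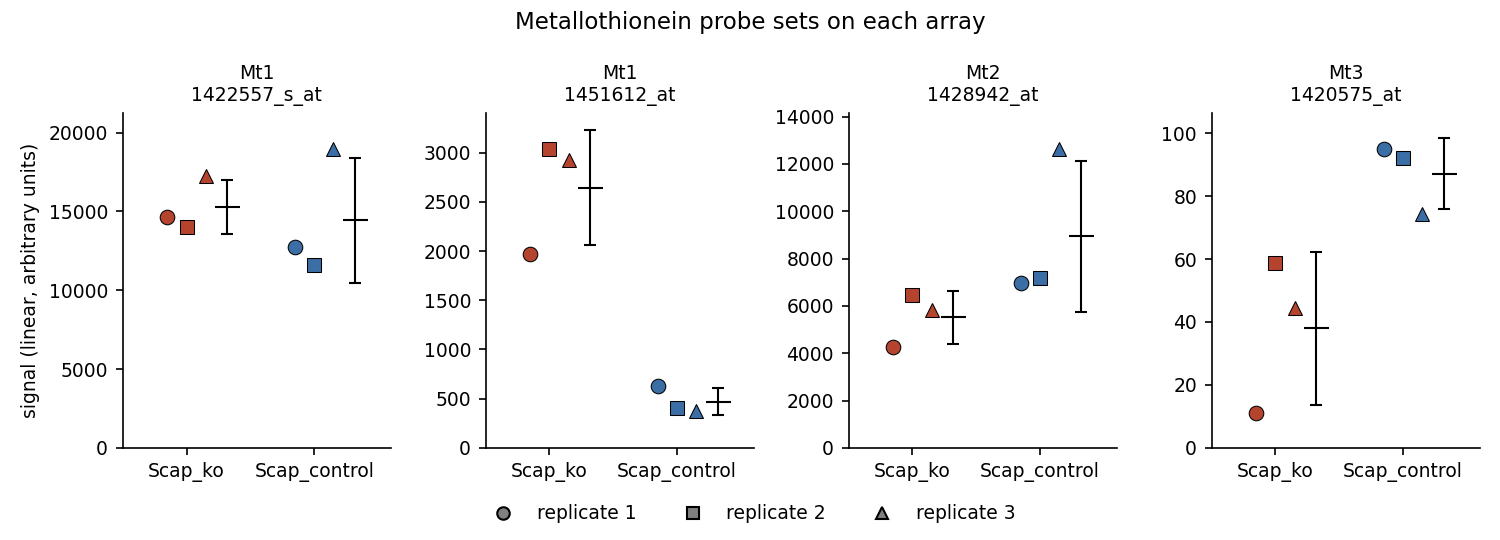
Linear signal (arbitrary units, axes from 0, a scale of its own in each panel) of the 4 metallothionein probe sets on the 3 Scap_ko and 3 Scap_control arrays; symbols mark the replicate number, and the bar beside each group is its mean ± SD (n = 3). The 2 Mt1 panels differ: 1422557_s_at overlaps between groups around 15293 and 14445, while 1451612_at averages 2644 in Scap_ko and 468.3 in Scap_control lungs.

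Of the 4 probe sets, 1 had all Scap_ko arrays above all Scap_control arrays and 2 had them all below. Over all 45037 non-control probe sets, 4.35% were separated as higher and 6.35% as lower in this way. The members were picked from this contrast, so nothing is read from their share. Those of Mt1 and Mt2, 3 in all, passed the limit of brightness used for testing, a mean log2 signal at or above that of the median probe set, which corresponds to a signal of 497.8. That of Mt3 did not. Probe set 1451612_at passed only through Scap_ko lungs, since its Scap_control mean of 468.3 and 2 of the 3 Scap_control arrays lay below the limit, so its place among the probe sets above the limit reflects the group in which it was high.

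The arrays did not fall in the same order for the 4 probe sets. Scap_control lung 3 was the highest of the 6 for 1422557_s_at of Mt1 and for Mt2, and the lowest for 1451612_at of Mt1. Scap_ko lung 1 was the lowest of the 6 for Mt2 and Mt3, and the lowest of the 3 Scap_ko lungs for 1451612_at. The spread within a group was widest for Mt3 in Scap_ko lungs, where the highest array read 5.23 times the lowest. It was narrowest for 1422557_s_at in Scap_ko lungs, at 1.23 times.

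As a share of the other probe sets on the same array, 1422557_s_at was brighter than at least 96.9% in every sample, and Mt2 than 88.7% to 97.1%. Mt3 lay between the 3.15 and 19.8 percentiles. Probe set 1451612_at lay between the 44.9 and 83.7 percentiles over the 6 arrays. Signals of different probe sets depend on how well each binds, so these positions do not rank the transcripts.

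Among the 19346 single-symbol probe sets above the limit, which 1451612_at joined through its Scap_ko signal, its difference ranked 3 by size, after the 2 probe sets of Scd1, a fatty acid desaturase that SREBP induces, which had log2 differences of -2.60 and -2.59. These ranks describe values that chose the genes and support nothing. Mt2 ranked 170 and 1422557_s_at of Mt1 ranked 9128. Next to 1451612_at stood a probe set of Emp1, a membrane protein of epithelia, at 2.42.

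**Figure D2:**
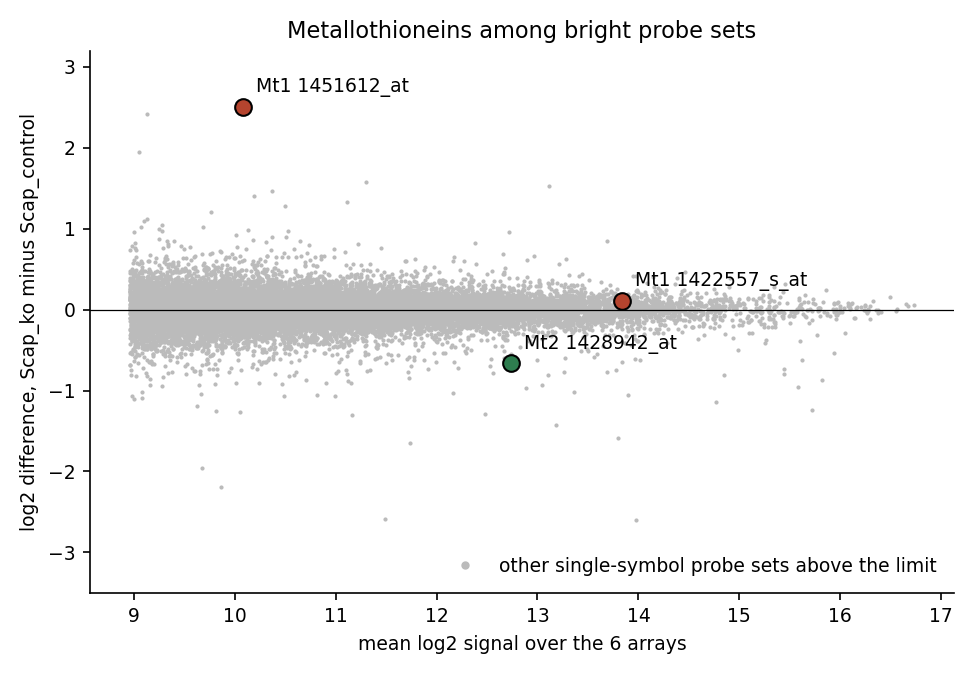
Log2 difference, Scap_ko minus Scap_control, against the mean log2 signal over 6 arrays for 19346 single-symbol probe sets above the brightness limit; each dot is 1 probe set and the metallothioneins are enlarged. Probe set 1451612_at of Mt1 lies at 2.51, above the cloud, while 1422557_s_at lies at 0.11 within it and Mt2 at -0.66 near its lower edge.

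The distance between the 2 Mt1 probe sets, 2.40 on the log2 scale, is the disagreement for which the genes were picked, so its place among other genes is a description only. It was the widest of 4967 genes with more than 1 probe set above the limit, a group that Mt1 entered because 1451612_at was bright in Scap_ko lungs. The median gene had a distance of 0.18 between its highest and lowest probe set, and 95% of genes stayed below 0.54. A distance of 1 or more was found in 28 genes, 0.564% of them. Emp1 came next at 2.27, with probe sets at 0.15 and 2.42. The sources used here do not say where in the transcript the probes of either Mt1 probe set lie, and what separates them was not tested.

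**Figure D3:**
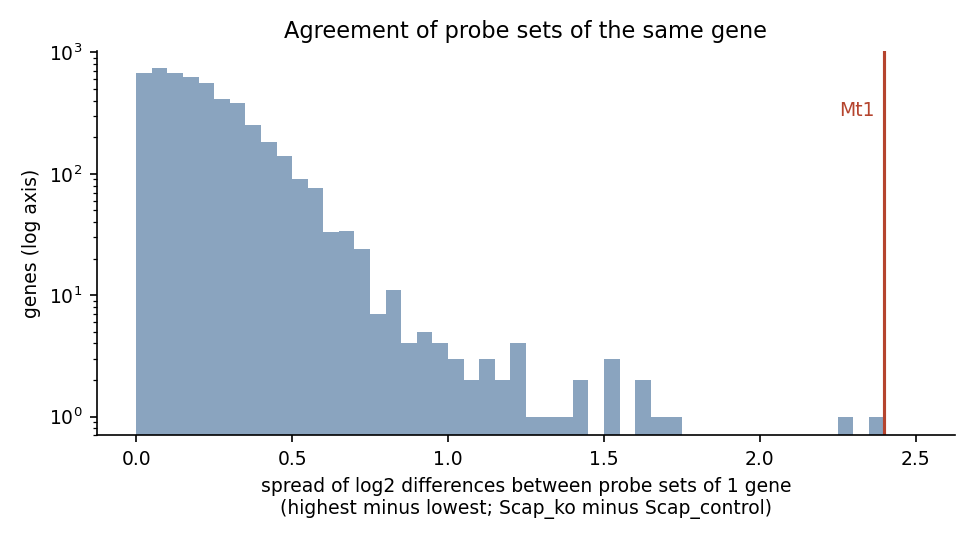
Number of genes (log axis) by the distance between the highest and lowest log2 difference among their probe sets, for 4967 genes with more than 1 probe set above the brightness limit, in bins of equal width. Mt1, marked by the line at 2.40, is at the far end of a distribution whose median is 0.18.

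The targeted transcript was lower on average in Scap_ko lungs. Scap probe set 1433520_at read 1846.8, 3285.8 and 2702 in Scap_ko lungs 1 to 3, against 7264.1, 4194.6 and 3079.7 in Scap_control lungs 1 to 3. The groups overlapped, and the exact permutation test, two-sided, returned p = 0.2, with 0.1 the lowest p within reach of 3 arrays a group. All 3 numbered pairs were lower in Scap_ko lungs, by log2 differences of -1.98, -0.35 and -0.19. In the limma fit across all genes Scap had a log2 difference of -0.84 (SE 0.33, unadjusted p = 0.0371, adjusted p = 0.808), and the unadjusted p was 0.0485 with the replicate block. Limma, fitted across 10972 genes with 1 probe set each, called 1 gene, the peroxisomal oxidase gene Acox2, at a Benjamini-Hochberg adjusted p of 0.05, which is 0.00911% of the genes tested, and 0 with the replicate number as a block. Acox2 was not called once any of the 6 arrays was left out; without Scap_ko lung 2 the 1 gene called was Scd1. At an unadjusted p of 0.05, 2.88% of genes were higher and 3.04% lower in Scap_ko lungs, and the counts below without the block are read against these shares. With the replicate block 459 of the 10972 genes were higher and 496 lower, more than the 316 and 334 without it. Blocked counts below are read against those larger numbers.

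Markers of another tissue were uneven among the controls. Fetal liver makes large amounts of metallothionein, and of 12 liver markers with a probe set, 7 were higher in Scap_control lungs 1 and 2 than in any of the other 4 arrays. The share of all probe sets with this pattern is not given here, so nothing is read from the count. Summed over the 12, the signal was 1245.6 to 1304.4 in Scap_ko lungs, against 4553.2, 11111.8 and 1308.3 in Scap_control lungs 1 to 3. None of the 12 passed the brightness limit by mean log2 signal over the arrays, none exceeded it on any Scap_ko array, and 3 exceeded it in Scap_control lung 2. Afp, which encodes the fetal plasma protein alpha-fetoprotein, read 64, 45.1 and 40.1 in Scap_ko lungs 1 to 3, against 693.2, 6700.1 and 22.2 in Scap_control lungs 1 to 3. It made up most of the sum in Scap_control lung 2. Scap_control lung 3, with a liver sum of 1308.3, was the highest array for Mt2 and for 1422557_s_at of Mt1. It was the lowest array for 1451612_at and the lowest control for Mt3. With Scap_control lung 3 as the only control, the log2 difference was 2.79 for 1451612_at, -1.22 for Mt2, -0.32 for 1422557_s_at and -1.27 for Mt3. These values rest on 1 control array, chosen after the data were seen, so nothing about liver RNA is read from them. The part of liver RNA in the metallothionein values was not tested.

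Markers of the tissue itself were present. All 15 lung epithelial markers with a probe set passed the limit, and the surfactant protein C gene Sftpc read 97286 ± 6167 in Scap_ko lungs and 97440 ± 15052 in Scap_control lungs (SD, n = 3 each). Of these 15 markers 10 had negative differences, with a median log2 difference of -0.11, and 4 (Sftpa1, Abca3, Sftpb and Epcam) were lower at an unadjusted p of 0.05, beside 3.04% of all genes tested, although another Abca3 probe set gave 0.26. The count was 5 with the replicate block, 1 without Scap_ko lung 1, and 2 without Scap_ko lung 2, Scap_control lung 1 or Scap_control lung 3. Summed epithelial signal was 495393 to 590983 in Scap_ko lungs and 513631 to 664312 in Scap_control lungs. Of 9 nerve and glial markers, 3 passed the limit, with sums of 3695.2 to 4733.9 in Scap_ko and 4102.2 to 5411.7 in Scap_control lungs. Among them 0 passed at an unadjusted p of 0.05, and 1 was lower with the replicate block, Aqp4, at -0.35 (SE 0.16). This water channel gene is not confined to glia, so no glial change is read from it. Erythroid sums were 14466.4 to 19595.4 in Scap_ko and 18133 to 21252.8 in Scap_control lungs, with 4 of 7 markers above the limit. Of these 4, 3 had negative differences and the median was -0.15. The erythropoietin receptor gene Epor was higher at an unadjusted p of 0.05 (log2 difference 0.47, SE 0.14), beside 2.88% of all genes tested. Alas2, the haem synthesis enzyme of red cell precursors, had -0.31 (SE 0.15), with an unadjusted limma p of 0.0697, or 0.0144 with the replicate block. Leukocyte sums were 50802.5 to 70586.1 in Scap_ko and 71712.3 to 89555 in Scap_control lungs, although 6 of the 8 leukocyte genes tested had positive differences and their median was 0.11. The lysozyme gene Lyz2, which alveolar type II cells also make, made up most of that sum and had a log2 difference of -0.79 (SE 0.18). It was the 1 leukocyte gene lower at an unadjusted p of 0.05, and the 1 higher was Cd14, a monocyte receptor gene, at 0.35 (SE 0.14). The higher count was 0 without Scap_ko lung 1, Scap_ko lung 3, Scap_control lung 2 or Scap_control lung 3, and 2 without Scap_ko lung 2. Sums over heart, skeletal muscle, thymus and oesophagus markers were 38551.7 to 55933 in Scap_ko and 38302.2 to 46528.5 in Scap_control lungs, with 5 of 13 above the limit. The part of these cell types in the metallothionein values was not tested.

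The genes that sense metals and move zinc were split between the directions. Of 26 listed genes with a probe set 19 were tested: 9 had positive and 10 negative log2 differences, the median was -0.01 beside 0.01 over all genes tested, 0 were higher and 1 was lower at an unadjusted p of 0.05, and 0 had an adjusted p below 0.05. The 1 was Slc30a1, the zinc exporter of the plasma membrane and, like Mt1, a target of MTF1. It read 3463.7, 2821.6 and 3621 in Scap_ko lungs 1 to 3, against 4028.6, 3747.8 and 4262.7 in Scap_control lungs 1 to 3, and the groups did not overlap (log2 difference -0.29, SE 0.12, limma adjusted p = 0.833). A second probe set of Slc30a1 above the limit gave -0.04.

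Mtf1, the zinc sensor itself, read 1397 ± 152 in Scap_ko lungs and 1384 ± 293 in Scap_control lungs (SD, n = 3 each; log2 difference 0.03, SE 0.17), and its other probe sets above the limit gave -0.19 and 0.27. Slc39a14, a zinc importer induced by inflammation, had a log2 difference of 0.10 (SE 0.15). Slc30a4, which loads zinc into vesicles, had 0.18 (SE 0.09, limma adjusted p = 0.865), with no overlap between groups. Over all non-control probe sets 4.35% were separated as higher and 6.35% as lower. Mt4 was dim, at 12.2 to 70.5 in Scap_ko and 20.6 to 120.6 in Scap_control lungs, and was not tested.

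Genes for copper, the other metal that metallothioneins bind in health, gave a like picture. Of 12 tested, 5 were positive and 7 negative with a median of -0.03, and 1 was lower at an unadjusted p of 0.05 (2 with the replicate block, which added Sco2). This was Slc31a1, the high-affinity copper importer, at 4540 ± 708 in Scap_ko lungs and 5721 ± 303 in Scap_control lungs (SD, n = 3 each; log2 difference -0.34, SE 0.13, limma adjusted p = 0.793), and its second probe set above the limit gave -0.13. Sco2, a copper chaperone of cytochrome oxidase, had -0.36 (SE 0.19, limma adjusted p = 0.874). In the iron list 8 genes were tested, 4 in each direction, with a median of 0.02, and 0 passed at an unadjusted p of 0.05. Slc40a1, the iron exporter ferroportin, had -0.19 (SE 0.09) and the transferrin receptor gene Tfrc 0.13 (SE 0.10).

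Glucocorticoids rise before birth and induce metallothioneins, and 14 genes of that response were tested. Of these 6 were positive and 8 negative, the median was -0.08, and 1 was lower at an unadjusted p of 0.05. It was Hsd11b1, the enzyme that regenerates active glucocorticoid inside cells, at 13930 ± 176 in Scap_ko lungs and 16749 ± 1289 in Scap_control lungs (SD, n = 3 each; log2 difference -0.26, SE 0.10, limma adjusted p = 0.792). The receptor gene Nr3c1 had 0.01 (SE 0.11), and its targets Fkbp5 and Tsc22d3 had 0.07 (SE 0.13) and -0.13 (SE 0.11). Pdk4, a kinase that restrains pyruvate use, had -0.25 (SE 0.19).

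Most tested genes of the stress and inflammation lists had positive differences, a larger share than the 5676 of the 10972 genes tested in all. In the NRF2 and oxidative stress list 8 of 10 tested genes were positive with a median of 0.08, beside 0.01 over all genes tested. Its summed signal was 37682.5 to 38779.2 in Scap_ko and 34001.1 to 36106.5 in Scap_control lungs, without overlap. The sum of the metal sensing and zinc list was separated the other way, at 59298.5 to 60479.3 against 61054.4 to 63164.3. Sums of the other pathway lists overlapped, and none was tested. A sum follows its brightest genes. In the NRF2 list the brightest was Nfe2l2, with mean signals of 13926 in Scap_ko and 12730 in Scap_control lungs. No rise or fall of a whole list is read from these sums. Gclc, which makes the first step of glutathione synthesis, had 0.18 (SE 0.10), Nfe2l2, the gene of NRF2, 0.13 (SE 0.09), and Hmox1, haem oxygenase, 0.07 (SE 0.19). In the interleukin 6 and acute phase list 6 of 8 were positive with a median of 0.12, among them Stat3 at 0.18 (SE 0.12) and its feedback inhibitor Socs3 at 0.25 (SE 0.22). In both lists 0 genes passed at an unadjusted p of 0.05.

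Of 11 cytosolic heat shock genes 9 were positive with a median of 0.11, and 1 was higher at an unadjusted p of 0.05. That gene, Hspe1, a mitochondrial co-chaperone listed with them, read 8207 ± 85.7 in Scap_ko lungs and 6678 ± 552 in Scap_control lungs (SD, n = 3 each; log2 difference 0.30, SE 0.10, limma adjusted p = 0.739). Hsp90aa1, an inducible cytosolic HSP90, had 0.26 (SE 0.12). Over the 7 lists together, 82 genes were tested, 1 was higher and 3 were lower at an unadjusted p of 0.05, and 0 had an adjusted p below 0.05. With 1 array left out the higher count reached 3 (without Scap_control lung 1) and 2 (without Scap_control lung 2). The lower count was 0 without Scap_control lung 3, 1 without Scap_control lung 1, Scap_ko lung 1 or Scap_ko lung 2, and 6 without Scap_ko lung 3. Other probe sets above the limit turned the sign for Fkbp5 (-0.13), Tfrc (-0.02), Stat3 (-0.09) and Socs3 (-0.01). As for the 2 zinc transporters above, groups did not overlap for Slc31a1, Slc40a1 and Hsd11b1 (lower). The same held for Gclc, Nfe2l2, Hspe1 and Hsp90aa1 (higher). These genes were named by their p-values, so nothing is read from their number.

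**Figure D4:**
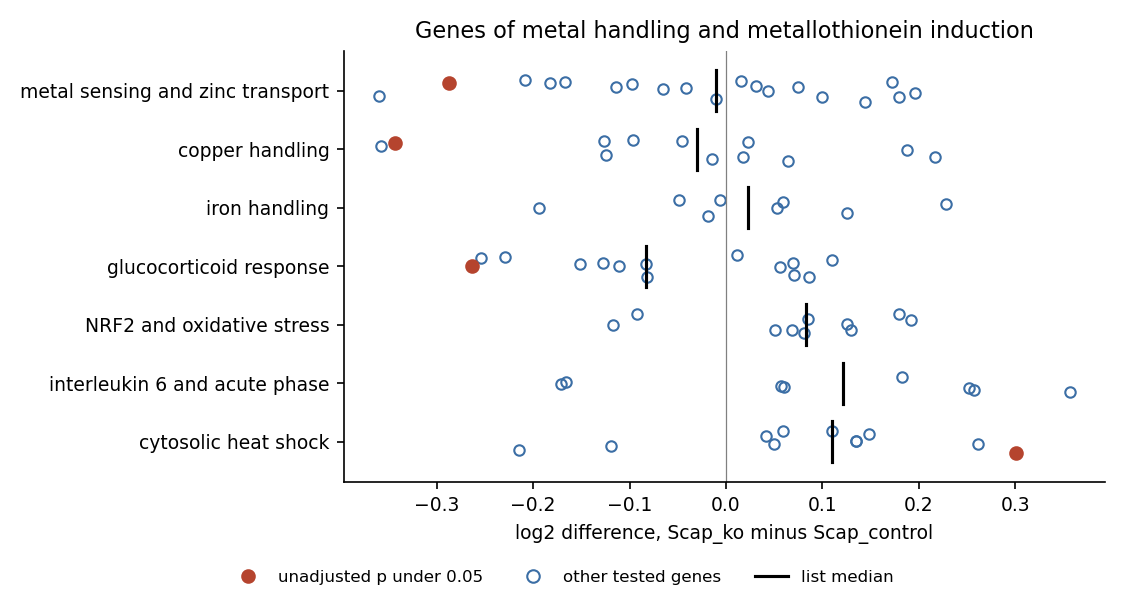
Log2 differences, Scap_ko minus Scap_control, of the tested genes in 7 lists of metal handling and of signals known to induce metallothioneins; each circle is 1 gene, filled where the unadjusted limma p is under 0.05, and the bar is the list median. The values lie between -0.36 and 0.36, and 4 genes are filled.

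The genes on either side of the cluster were close to 0. The 4 metallothionein genes Mt4, Mt3, Mt2 and Mt1 follow one another on mouse chromosome 8 in RefSeq, assembly GRCm38.p6. Of the 4 protein-coding genes on each side, 5 were tested, and their log2 differences were 0.10 for Nudt21, 0.01 for Ogfod1, 0.07 for Bbs2, 0.09 for Nup93 and 0.03 for Herpud1.

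The named genes most like each metallothionein over the 6 arrays were found by Pearson correlation of log2 signal. Symbols of unnamed clones and the other metallothioneins were passed over. All values share the same arrays, so the genes found are a description only. For 1422557_s_at of Mt1 they were Plcb1 (0.99), Klf15 (0.99), Pla2r1 (0.99), Cav2 (0.99) and Npdc1 (0.99), and 254 of 10971 other tested genes exceeded 0.9. For Mt2 they were Inpp4a (0.99), Stab1 (0.98), Nop14 (0.98), Pxmp2 (0.98) and Rsu1 (0.98), with 94 genes above 0.9. For Mt3 they were Rnf40 (0.99), Nufip1 (0.99), Ubqln4 (0.99), Acvr2b (0.98) and Ppp2r3a (0.97). For 1451612_at, added after its values were seen, they were Arel1 (0.99), Zfp59 (0.98), Chd6 (0.98), Shroom3 (0.98) and Nr6a1 (0.97). These 5 had log2 differences between 0.17 and 0.31, against 2.51 for the probe set they resemble. With 6 arrays many genes reach such values, and no gene was among the first 5 of more than 1 of the 4 probe sets.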

How the data were processed

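Total RNA of whole lung from 3 Scap_ko and 3 Scap_control samples was column-purified, biotin-labelled and hybridised to MOE430 V2 chips, per the labels' protocols; groups and replicate numbers came from the titles. The authors deposited intensity values: 1 linear signal per array for 45101 probe sets. RMA is named in the submitters' processing notes, but the values are linear, go as low as 0.2 and differ in distribution between arrays. Each array has a mean of 1500 after trimming 2% at either end; the software and background correction are not given in the sources used here. Linear scaling without detection calls makes log2 differences of dim probe sets unsteady. Array medians ran from 490.8 to 530.4; the number of arrays limits precision.

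Without the 64 control probe sets, 34945 were annotated with 1 symbol, 932 with several and 9160 with none. The log2 signal was used without a pseudocount. Each gene was represented by its brightest probe set, and 10972 genes with a mean log2 signal at or above the median of all probe sets were fitted with limma 3.58.1 (R 4.3.3; lmFit, eBayes, no covariate), p-values being adjusted by Benjamini-Hochberg over all of them. The SE of a metallothionein difference comes from its own arrays, that of other genes from limma. Of these steps only the limma fit was tried on simulated data, drawn as independent normal noise. Its mean estimates were checked against the differences added. Exact permutation tests used SciPy 1.17.1.

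The members, gene lists and rules were chosen with earlier results of these data known. Named genes are the members, Scap and 8 fixed genes. From each list come the members at an unadjusted limma p under 0.05, filled up to 2 by smallest p. Also named are the 5 genes most like the brightest probe set of each member, with unnamed clones and other metallothioneins passed over. Acox2, Scd1, Emp1, Afp, Mt4 and the neighbours were named after their values were seen. Same-numbered samples deviated together across genes (correlations 0.17, 0.20 and 0.43), each over 0.1, the cut used for treating them as pairs. Scap_ko 1 with Scap_control 2 reached 0.18, above its 0.17 with Scap_control 1, so the numbers are not shown to mark true pairs. The values given come from the fit without the block, and a blocked value is printed where it changed a call or a count. Alternatives were quantile normalization, a pseudocount of 50, other brightness limits, all single-symbol probe sets above the limit, the replicate block and leaving out arrays.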

Additional observations from a re-analysis of the deposited data

How the results depend on the processing

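The direction of Mt1 probe set 1451612_at, Mt2 and Mt3 held under quantile normalization. A pseudocount of 50 or a left-out array could not turn it, because the groups did not overlap for these probe sets. Those settings bear only on the size of the differences. With 1 array left out the log2 difference ran from 2.37 to 2.74 for 1451612_at, from -0.81 to -0.38 for Mt2 (nearest 0 without Scap_control 3) and from -1.96 to -0.76 for Mt3. That of 1422557_s_at ran from -0.03 (without Scap_control 2) to 0.32 (without Scap_control 3), so its sign is not settled. Without Scap_control 1 and 2, an alternative chosen after seeing the data, it was -0.32 and Mt2 was -1.22. With the replicate block the member differences are the same by construction (2.51 for 1451612_at).

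The single gene called by limma at an adjusted p of 0.05 became 0 with no filter on dim genes. It also became 0 with the filter at the 75th percentile, with all single-symbol probe sets above the limit and with the replicate block. The same held without both arrays numbered 3. With 1 array left out the count ran from 0 to 1, the 1 being Scd1 in place of Acox2. At an unadjusted limma p of 0.05, 316 genes were higher and 334 lower of 10972 tested. With no filter 376 were higher and 686 lower of 18193 genes. The filter at the 75th percentile gave 207 higher and 208 lower of 6624 genes. Over the 19346 single-symbol probe sets above the limit, counted as probe sets and not as genes, 499 were higher and 575 lower. The totals differ, so a larger count is not a larger share. In the 7 lists the 1 higher gene became 2 with no filter and 3 with all single-symbol probe sets above the limit. The higher count was 2 without both arrays numbered 3, and 1 to 3 with 1 array left out. The 3 lower genes ran from 0 (without Scap_control 3) to 6 (without Scap_ko 3). The Scap probe set with the lower signal, at -0.40, ran from -1.42 to 0.14, turning to 0.07 without Scap_control 1 and 0.14 without Scap_control 2. The causes were not tested. Arrays give no count, so dim probe sets such as that of Mt3 are limited by an unknown background.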
